A study of Homo sapiens with 12 samples.

Results

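The genes of the proteasome, the protease complex that breaks down proteins marked with ubiquitin, were followed in PC3 cells with and without overexpression of SFRP2 on 2 culture surfaces. They were chosen by symbol: the protein-coding genes of the GENCODE annotation that begin with PSMA, PSMB, PSMC, PSMD, PSME or PSMF and whose Ensembl identifier is in the deposited count table. This gave 46 of the 60676 genes of the table. Of these, 44 had at least 10 counts summed over the 12 libraries and were tested among 20364 genes, while PSMA8, a testis subunit of the alpha ring, and PSMB11, a subunit of the thymus, had 0 counts in every library. The symbols also took in PSMC3IP and PSME3IP1, which encode partner proteins and no subunits. The other 44 genes were 7 of the alpha ring, 7 of the constitutive beta ring, 5 of immune or tissue-specific core subunits, 6 ATPases and 3 further subunits of the base, 8 of the lid, 3 chaperones of base assembly and 5 activators or inhibitors.

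The core of the proteasome is a barrel of stacked alpha and beta rings, in which PSMB5, PSMB6 and PSMB7 carry the active sites. The regulatory particle sits on its end, with a lid that removes ubiquitin and a base whose ATPases unfold the substrate and thread it into the core. In immune cells, and in many others after interferon, PSMB8, PSMB9 and PSMB10 replace the active subunits PSMB5, PSMB6 and PSMB7 in that order, and this immunoproteasome and the activator PSME1/PSME2 supply peptides for display on MHC class I.

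PC3 is an established human prostate cancer line from a bone metastasis. PC3SFRP2 cells carry SFRP2, whose secreted product binds WNT ligands, on a Sleeping Beauty transposon with a red fluorescent protein and puromycin resistance. The control PC3 cells carry the same plasmid without SFRP2, and both lines were selected with puromycin and enriched by sorting for red fluorescence. The sources name 1 line of each kind, so the effect of SFRP2 cannot be told apart from other differences between these lines. Cells grew for 5 days on collagen type I (COL1) or on uncoated cell culture plastic (CCP), which gave COL1-PC3SFRP2, COL1-PC3, CCP-PC3SFRP2 and CCP-PC3, with 3 libraries each. According to the labels the libraries are biological replicates, and the methods state for all experiments that they were done in triplicate and repeated, without saying that each library is a separate culture. Without separate cultures, a p-value covers only the possibly technical spread between these samples.

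The libraries held 5529459 to 9975972 counts in genes, with the 3 of COL1-PC3SFRP2 at 6029679, 6309800 and 5529459. SFRP2 had 10415 to 31109 CPM (counts scaled to library size after TMM normalization) in the 6 PC3SFRP2 libraries and 10.7 to 26.9 CPM in the 6 PC3 libraries. Epithelial markers (KRT8, KRT18, KRT19, EPCAM and CDH1) were all over 1 CPM, whereas KLK2 and KLK3, which mark luminal prostate cells, were under 1 CPM. Of 6 leukocyte markers, 0 were over 1 CPM, and their sum was 0.599 to 0.917 CPM in COL1-PC3SFRP2 and 0.333 to 0.947 CPM in COL1-PC3. COL1-PC3SFRP2 stood apart in several ways. Mitochondrial genes held 13.7%, 16.8% and 7.17% of its counts and 19.8% to 24.0% in the other 9 libraries. Each library was also set against the mean of the libraries outside COL1-PC3SFRP2, itself left out. For the other 9 libraries this mean included their own group. The deviation of genes from it was correlated with their GC content. The Spearman correlation over genes was 0.82, 0.74 and 0.85 in the COL1-PC3SFRP2 libraries and -0.53 to 0.60 in the others. A deposited table of all libraries holds other counts under the name of the third library of COL1-PC3SFRP2, whose counts in the table used here appear there under the number 4. The results were therefore also computed with that other column (the substituted library) and after removing from each library its trend with GC content and transcript length (the GC correction).

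To place the subunits that the results turn on, the 250 bases before the RefSeq start of 4 genes are shown (GRCh38.p14, each 5′ to 3′ on the strand of its gene): the 3 immune subunits and PSMA2, the subunit with the largest decrease among the members tested. Capitals mark TGACNNNGC (an antioxidant response element core, which NFE2L1 binds), CCAAT (the NF-Y box) or GAAANNGAA (an interferon-stimulated response element core), searched on both strands, and no capitals mean that none of the 3 was in the window. The windows are at chr6:32844680-32844929 (minus strand) for PSMB8, chr6:32853942-32854191 (plus) for PSMB9, chr16:67936851-67937100 (minus) for PSMB10 and chr7:42932175-42932424 (minus) for PSMA2.
PSMB8: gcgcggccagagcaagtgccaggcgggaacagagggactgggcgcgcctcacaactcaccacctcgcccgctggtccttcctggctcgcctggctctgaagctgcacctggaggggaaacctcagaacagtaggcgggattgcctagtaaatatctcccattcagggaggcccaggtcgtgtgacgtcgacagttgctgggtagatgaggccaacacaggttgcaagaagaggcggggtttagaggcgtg
PSMB9: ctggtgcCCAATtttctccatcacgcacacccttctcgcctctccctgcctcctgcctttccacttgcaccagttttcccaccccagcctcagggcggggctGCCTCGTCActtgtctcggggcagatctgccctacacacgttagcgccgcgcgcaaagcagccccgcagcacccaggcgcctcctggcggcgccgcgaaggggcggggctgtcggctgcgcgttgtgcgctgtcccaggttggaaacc
PSMB10: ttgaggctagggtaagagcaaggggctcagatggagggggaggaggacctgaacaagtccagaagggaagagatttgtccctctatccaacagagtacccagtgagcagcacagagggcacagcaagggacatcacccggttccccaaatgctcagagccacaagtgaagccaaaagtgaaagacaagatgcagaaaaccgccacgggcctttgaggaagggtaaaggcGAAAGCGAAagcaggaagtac
PSMA2: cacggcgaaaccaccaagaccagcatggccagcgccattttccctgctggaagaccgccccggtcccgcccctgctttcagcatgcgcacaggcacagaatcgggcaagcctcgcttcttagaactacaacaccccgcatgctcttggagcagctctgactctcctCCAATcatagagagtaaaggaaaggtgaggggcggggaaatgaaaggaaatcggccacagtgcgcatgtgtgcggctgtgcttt
PSMB9 had CCAAT starting 243 bases and the antioxidant core, read on the other strand, 148 bases before its start, PSMB10 had the interferon core at 21 bases and PSMA2 had CCAAT at 84 bases. A window was given for 41 of the 46 genes. The antioxidant core was in 11 of these 41 (26.8%) and in 13.2% of 27305 genes, CCAAT in 20 (48.8%) against 37.0%, and the interferon core in 4 (9.76%) against 8.41%. A match of letters is a description and not a bound site.

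Per kilobase of transcript, the constitutive active subunits were above their immune counterparts in these cells. Averaged over the 12 libraries, PSMB4, a structural subunit of the beta ring, had 567 CPM per kilobase, PSMA3 of the alpha ring 426 and PSME1 254. The median of the role was 150 CPM per kilobase in the constitutive beta ring, 94.6 in the activators and inhibitors, 90.3 in the further base subunits, 78.2 in the base ATPases, 71.6 in the lid, 46.3 in the alpha ring and 15.1 in the assembly chaperones. PSMB8 was at 19.6 and its counterpart PSMB5 at 104 CPM per kilobase, PSMB9 at 4.09 and PSMB6 at 149.9, and PSMB10 at 2.55 and PSMB7 at 112. PSMC1, a base ATPase that every proteasome needs, had 24 counts in all 12 libraries together. Of its annotated transcript, 83.2% lies over NRDE2 on the opposite strand, and 13 pseudogenes of PSMC1 held 189 counts in these libraries. The strand setting of the counting is not given in the sources used here, so the low level of PSMC1 is not interpretable.

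On COL1, proteasome genes were divided between COL1-PC3SFRP2 and COL1-PC3. The immune subunits, the active subunits of the constitutive core and several subunits of the regulatory particle rose, while PSMA1, PSMA2 and PSMA3 of the alpha ring, PSMD12 of the lid and a pair of assembly chaperones fell. Of the 44 members tested, edgeR's quasi-likelihood test called 17 higher and 7 lower (Benjamini-Hochberg adjusted p under 0.05 over all 20364 genes), where 18.1% of all genes tested were called higher, 17.1% lower and 35.1% in either direction. As shares of the members these are 38.6% and 15.9%. The median log2 fold change of the members was 0.22, against 0.01 over all genes tested. The 3 libraries of COL1-PC3SFRP2 were all above those of COL1-PC3 for 18 members and all below for 11, where 21.4% and 22.4% of all genes showed this. By role, the alpha ring had 2 higher and 3 lower of 7, the constitutive beta ring 4 and 0 of 7, the immune core 3 and 0 of 3 detected, the base ATPases 1 and 0 of 6, the further base subunits 2 and 1 of 3, the lid 3 and 1 of 8, the assembly chaperones 1 and 2 of 3 and the activators and inhibitors 1 and 0 of 5.

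**Figure D1:**
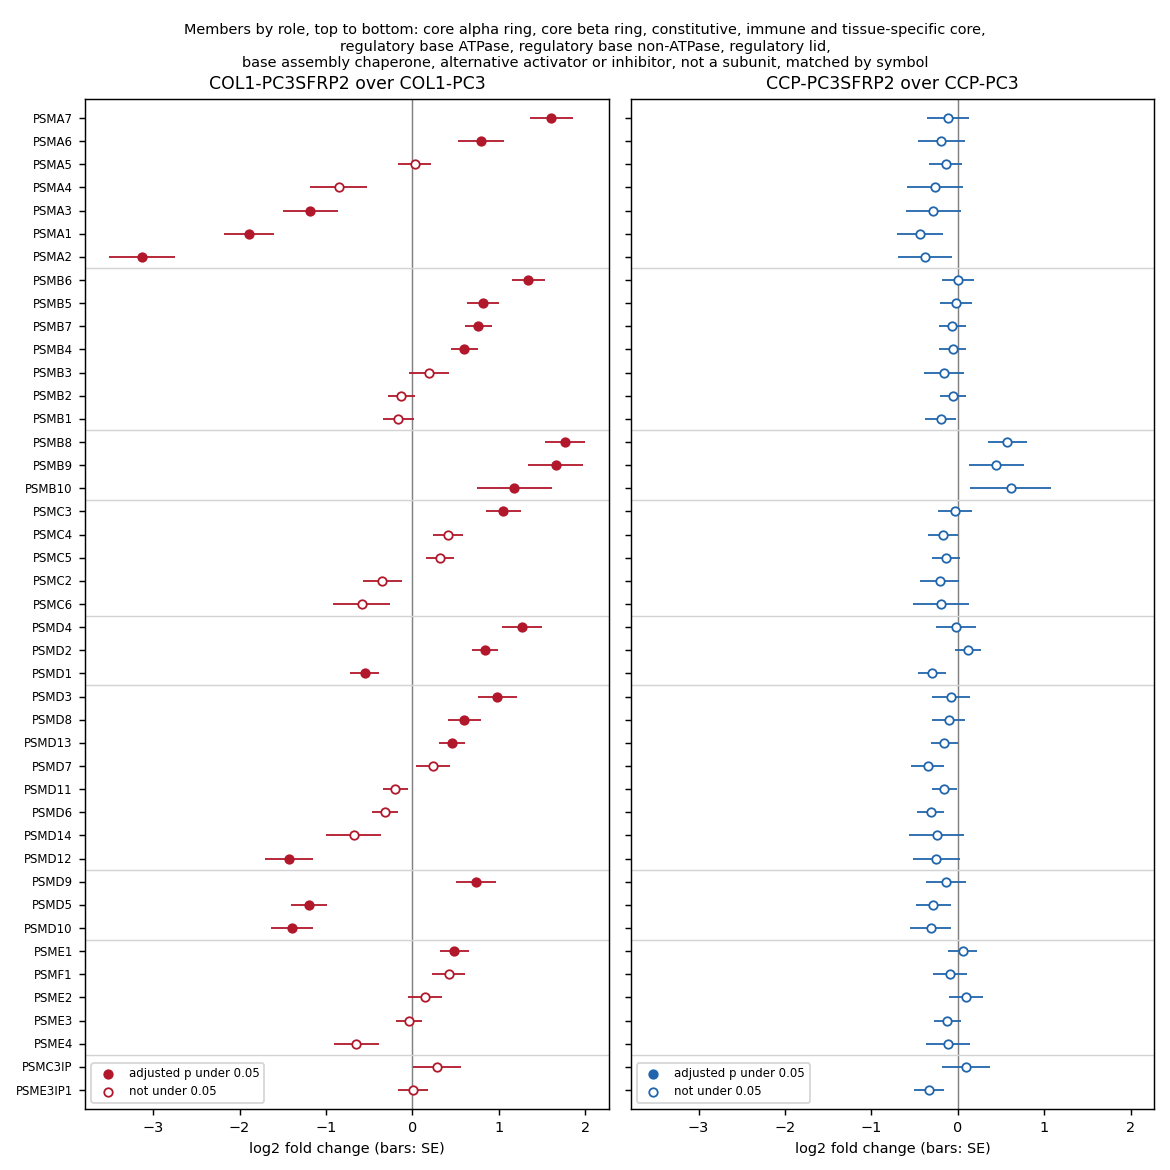
Log2 fold change (x axis, bars are ± 1 standard error) between PC3SFRP2 and PC3 of each member tested, grouped by role down the page, on COL1 (left panel) and on CCP (right panel). On COL1 the values run between -3.13 for PSMA2 and 1.77 for PSMB8, whereas on CCP no member was called; PSMC1 is left out for its wide error.

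The largest increase among the members was that of PSMB8 (ENSG00000204264, chromosome 6 from 32840717 to 32844679, GRCh38), the immune counterpart of PSMB5. PSMB8 had 43.4, 44.2 and 44.1 CPM in COL1-PC3SFRP2, against 16.5, 9.0 and 13.2 CPM in COL1-PC3. The groups did not overlap, and the COL1-PC3SFRP2 libraries, the third one included, lay within 1 CPM of each other. Its log2 fold change was 1.77 (SE 0.23, edgeR adjusted p = 0.000324). PSMB9 (ENSG00000240065, chromosome 6 from 32844136 to 32859851), its neighbour in the MHC region and the counterpart of PSMB6, had 7.90, 10.5 and 5.59 CPM in COL1-PC3SFRP2, against 2.23, 2.68 and 2.66 CPM in COL1-PC3. These groups did not overlap either, at a log2 fold change of 1.66 (SE 0.32, edgeR adjusted p = 0.00169). PSMB10 (ENSG00000205220, chromosome 16 from 67934506 to 67936864), the counterpart of PSMB7, had 5.84, 3.82 and 4.19 CPM in COL1-PC3SFRP2, against 3.34, 2.05 and 0.999 CPM in COL1-PC3. Its call was the least secure of the 3, at 1.18 (SE 0.43, edgeR adjusted p = 0.0457) from 37, 25 and 21 counts in COL1-PC3SFRP2 and 18, 13 and 9 counts in COL1-PC3. A gene with 63 counts in the 12 libraries, against 204 of PSMB10, covers 56.1% of its transcript.

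The immune subunits differed in how they held under other processing. PSMB8 and PSMB9 were called on COL1 under all 26 alternatives, with log2 fold changes of 1.15 to 1.97 and 1.22 to 1.91. After the GC correction they were 1.16 and 1.28, and with the substituted library 1.47 and 1.61. PSMB10 was 0.22 after the GC correction (edgeR adjusted p = 0.782) and kept its call in 4 of the 12 fits without 1 library. The column that replaces the third library held 19.6 CPM of PSMB8 and 5.03 CPM of PSMB9, against 44.1 and 5.59 CPM in the library it replaces. Leukocyte markers were near 0 in both groups, as given above.

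The constitutive active subunits rose as well. PSMB5, the chymotrypsin-like subunit, had 154, 138 and 210 CPM in COL1-PC3SFRP2, against 100.5, 91.2 and 92.9 CPM in COL1-PC3 (log2 fold change 0.82, SE 0.18, edgeR adjusted p = 0.00383). PSMB6, the caspase-like subunit (ENSG00000142507, chromosome 17 from 4796144 to 4798502), had 198, 188 and 293 CPM in COL1-PC3SFRP2, against 90.7, 85.9 and 90.9 CPM in COL1-PC3 (1.34, SE 0.19, adjusted p = 0.000438 from the same edgeR test). PSMB7, the trypsin-like subunit, had 154, 162 and 147 CPM in COL1-PC3SFRP2, against 93.5, 84.5 and 95.5 CPM in COL1-PC3 (0.76, SE 0.16, edgeR adjusted p = 0.00243). None of these 3 pairs of groups overlapped, and the third library was the highest for PSMB5 and PSMB6. PSMB6 was called under all 26 alternatives, at 0.70 after the GC correction and 0.89 on substitution of the library. PSMB8 counts were 28.2%, 32.0% and 21.0% of PSMB5 counts in COL1-PC3SFRP2, against 16.5%, 9.94% and 14.3% in COL1-PC3. The log2 ratio of PSMB8 to PSMB5 was 1.01 higher in COL1-PC3SFRP2 (two-sided exact permutation p = 0.1, the smallest that 3 against 3 libraries allow, and 0.4 adjusted over the 12 ratio tests). The ratio of PSMB9 to PSMB6 differed by 0.28 (exact permutation p = 0.6) and that of PSMB10 to PSMB7 by 0.46 (exact permutation p = 0.6). These tests cannot pass the threshold at this sample number.

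**Figure D2:**
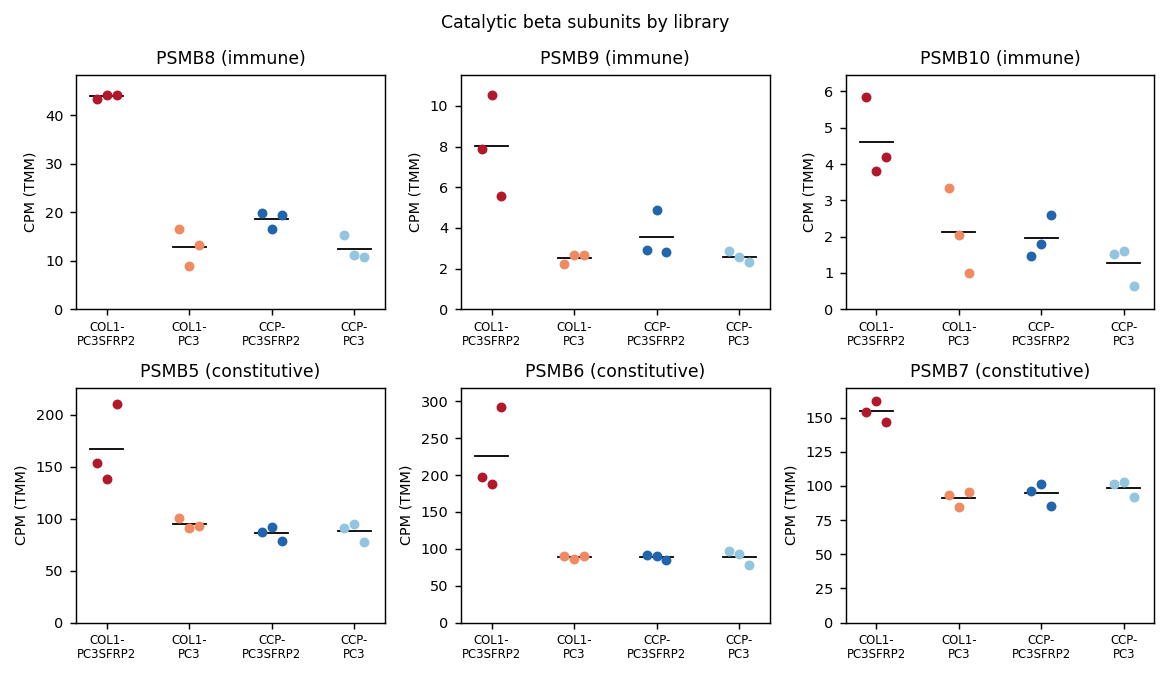
CPM (y axis) of the immune subunits PSMB8, PSMB9 and PSMB10 (top) and of the constitutive active subunits PSMB5, PSMB6 and PSMB7 (bottom) in each library of the 4 groups, with points for libraries and bars for means. The 3 COL1-PC3SFRP2 libraries of PSMB8 sit between 43.4 and 44.2 CPM, above all 9 other libraries, which reach at most 19.9 CPM.

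The alpha ring, which forms the gate of the core, split. PSMA2 (ENSG00000106588, chromosome 7 from 42916828 to 42932185) had 2.68, 4.43 and 0.599 CPM in COL1-PC3SFRP2, against 17.3, 26.2 and 26.7 CPM in COL1-PC3. This rests on 17, 29 and 3 counts in COL1-PC3SFRP2 and 93, 166 and 241 counts in COL1-PC3, and its log2 fold change of -3.13 (SE 0.38, edgeR adjusted p = 0.000191) was the largest decrease of the members. PSMA1 (ENSG00000129084, chromosome 11 from 14504874 to 14643635) had 17.8, 26.1 and 8.98 CPM in COL1-PC3SFRP2, against 52.8, 65.2 and 80.1 CPM in COL1-PC3 (-1.89, SE 0.29, edgeR adjusted p = 0.000626). PSMA3 had a log2 fold change of -1.18 (SE 0.32, edgeR adjusted p = 0.0103). The groups of PSMA1 and PSMA2 did not overlap, and the third library of COL1-PC3SFRP2 was the lowest for both. PSMA7 (ENSG00000101182, chromosome 20 from 62136733 to 62143440) went the other way, with 334, 293 and 653 CPM in COL1-PC3SFRP2, against 135, 141 and 144 CPM in COL1-PC3 (1.61, SE 0.25, edgeR adjusted p = 0.000675). PSMA6 was also called higher, at 0.79 (adjusted p = 0.03 from the same edgeR test). An overlapping gene covers 81.4% of its transcript. With the substituted library PSMA2 was -1.19 (edgeR adjusted p = 0.214), and that column held 23.5 CPM of PSMA2, 80.3 CPM of PSMA1 and 153 CPM of PSMA7, against 0.599, 8.98 and 653 CPM in the library it replaces.

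Of the 8 members of the regulatory particle that were called, 6 rose. PSMD2, a scaffold of the base that receives ubiquitin-like shuttle proteins, had 697, 622 and 668 CPM in COL1-PC3SFRP2, against 395, 362 and 351 CPM in COL1-PC3 (log2 fold change 0.84, SE 0.15, edgeR adjusted p = 0.0011). PSMD4, a ubiquitin receptor, had 161, 155 and 309 CPM in COL1-PC3SFRP2, against 89.2, 82.9 and 87.7 CPM in COL1-PC3 (1.27, SE 0.24, edgeR adjusted p = 0.00145). Neither pair of groups overlapped. Of the base ATPases, PSMC3 was called (1.05, SE 0.20, edgeR adjusted p = 0.00158), while PSMC4, the next by p, had 0.41 (adjusted p = 0.0787 from the same edgeR test). In the lid, PSMD3 was higher at 0.98 (edgeR adjusted p = 0.00415), PSMD1 of the base was lower at -0.55 (edgeR adjusted p = 0.0177), and PSMD12 of the lid at -1.43 (edgeR adjusted p = 0.00178). PSMD12 had 59.4, 79.6 and 27.5 CPM in COL1-PC3SFRP2, against 126, 161 and 162 CPM in COL1-PC3, without overlap. PSMD14, the deubiquitinase of the lid, did not pass at -0.68 (edgeR adjusted p = 0.113). After the GC correction, PSMD2 was called at 0.37 and PSMD4 at 0.75, while the other 6 lost their calls, among them PSMC3 at 0.29 (edgeR adjusted p = 0.105), PSMD3 at 0.01 (0.979), PSMD1 at -0.16 (0.418) and PSMD12 at -0.31 (0.0685).

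The chaperones that hold base subunits before they join were lower by sum, at 110 ± 35.4 CPM in COL1-PC3SFRP2 and 245 ± 3.87 CPM in COL1-PC3 (SD, n = 3 each). PSMD10 (gankyrin) had 78.3, 83.6 and 34.9 CPM in COL1-PC3SFRP2, against 172, 168 and 176 CPM in COL1-PC3 (log2 fold change -1.39, SE 0.24, edgeR adjusted p = 0.00112). PSMD5 had 30.2, 33.0 and 18.6 CPM in COL1-PC3SFRP2, against 64.7, 67.4 and 55.8 CPM in COL1-PC3 (-1.19, SE 0.21, edgeR adjusted p = 0.00104). Neither pair of groups overlapped, and the third library was again the lowest. PSMD9, the remaining chaperone, was higher at 0.74 (edgeR adjusted p = 0.0215). Among the activators, PSME1 and PSME2 form 1 ring with each other but did not have the same call. PSME1 had 310, 303 and 367 CPM in COL1-PC3SFRP2, against 259, 238 and 203 CPM in COL1-PC3 (0.49, SE 0.17, edgeR adjusted p = 0.037). PSME2 had 134, 137 and 78.8 CPM in COL1-PC3SFRP2, against 105, 106 and 105 CPM in COL1-PC3, and did not pass (0.15, SE 0.20, edgeR adjusted p = 0.605). PSME4, the activator known from spermatids, had -0.65 (edgeR adjusted p = 0.0637), and the partner genes PSMC3IP and PSME3IP1 had 0.28 and 0.01 (edgeR adjusted p = 0.468 and 0.972).

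Of the 24 members called on COL1, 16 kept the call without any 1 of the 12 libraries. All of the other 8 lost it without COL1-PC3 3, and their highest edgeR adjusted p over the 12 fits was 0.20 for PSMB10, 0.139 for PSME1, 0.115 for PSMD8, 0.113 for PSMA6, 0.0889 for PSMD13, 0.0826 for PSMD9, 0.0622 for PSMD1 and 0.0518 for PSMA3. All of them except PSMA3 also lost it without COL1-PC3 2. PSMB10 lost it in 8 of the 12 fits, PSME1 in 7, PSMD13 in 5, PSMA6 in 4 and PSMD9 in 3, COL1-PC3SFRP2 1 being a library left out in each of these 5. The members higher numbered 11 without COL1-PC3 2 or 3 and 12 without COL1-PC3SFRP2 1, and those lower numbered 12 without COL1-PC3SFRP2 2. Over all genes, 2601 and 2264 were higher without COL1-PC3 2 or 3, 3334 without COL1-PC3SFRP2 1, and 4214 were lower without COL1-PC3SFRP2 2.

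**Figure D3:**
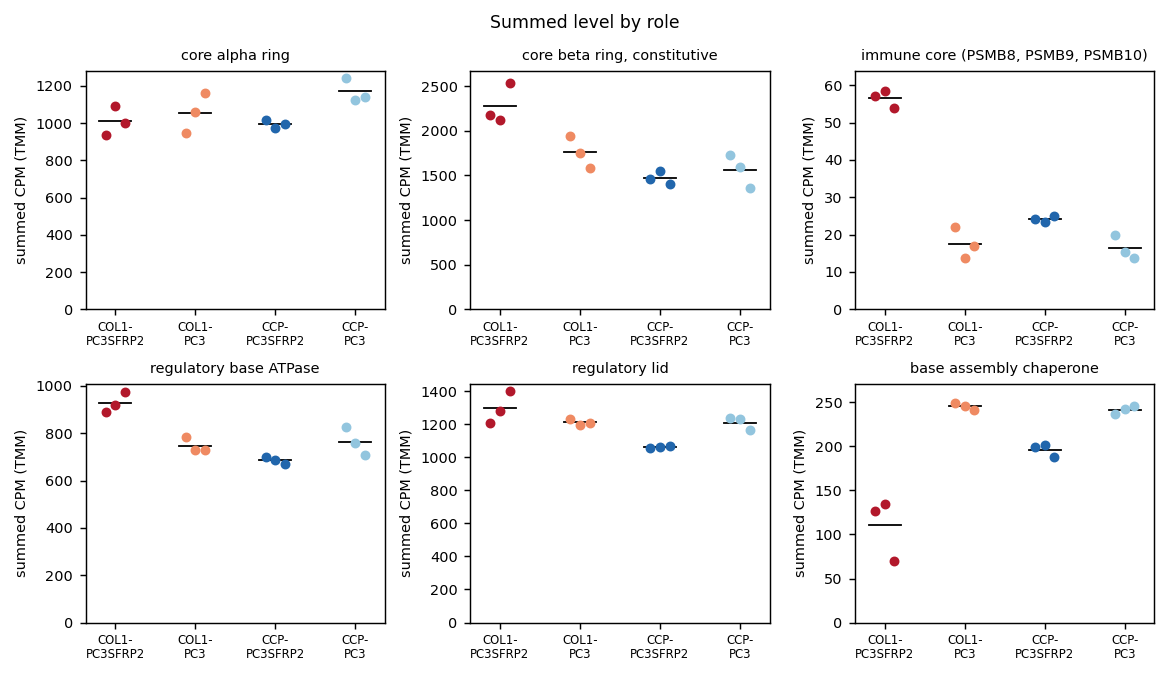
Summed CPM (y axis) of the members of 6 roles in each library of the 4 groups, with points for libraries and bars for means. The immune core sums to 53.9 to 58.5 CPM in COL1-PC3SFRP2 and to 13.7 to 24.9 CPM in the other 9 libraries, and the assembly chaperones are lowest in COL1-PC3SFRP2.

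Summed over all members, the proteasome genes had 7733, 7783 and 8412 CPM in COL1-PC3SFRP2, against 7130, 6796 and 6669 CPM in COL1-PC3. They took 0.812%, 0.807% and 0.762% of the counts of a library in COL1-PC3SFRP2, against 0.651%, 0.658% and 0.663% in COL1-PC3. Without mitochondrial counts in the total, the shares were 0.941%, 0.971% and 0.821% in COL1-PC3SFRP2, against 0.857%, 0.837% and 0.842% in COL1-PC3. The groups overlapped on this last scale and not on the other. The constitutive beta ring summed to 2277 ± 225 CPM in COL1-PC3SFRP2 and 1760 ± 181 CPM in COL1-PC3, while the alpha ring summed to 1011 ± 77.9 CPM in COL1-PC3SFRP2 and 1056 ± 110 CPM in COL1-PC3 (SD, n = 3 each). The regulatory particle summed to 3272 ± 203 CPM in COL1-PC3SFRP2 and 2675 ± 59.0 CPM in COL1-PC3 (SD, n = 3 each). In these bulk libraries, fewer cells with a transcript and less of it per cell cannot be told apart.

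The direction of a member on COL1 went with the GC content of its transcript. Across the 44 members the Spearman correlation of log2 fold change and GC content was 0.85, and it was 0.83 across 12551 genes; genes are not independent replicates and share the libraries. Of the 10 members under 42% GC, 0 were higher and 6 lower, with a median log2 fold change of -1.19. Of the 15 at 42% to 50% GC, 2 were higher and 1 lower, and of the 19 at or over 50% GC, 15 were higher and 0 lower, with a median of 0.82. Calls over all genes were not counted in these GC ranges, so this split does not set the members apart from other genes. The correlation over the members was 0.31 after the GC correction and 0.71 on substitution of the library. After the correction, 13 members were higher and 5 lower, where 1272 and 1818 of 20364 genes were. Of these members, 9 and 5 were among the 17 and 7 called without the correction. PSMA2 was -2.27 and PSMA1 -1.22, while PSMA3 was -0.42, PSMB5 0.35, PSMD5 -0.42 and PSMD10 -0.58, all still called. PSMA5 (1.20), PSMC2 (0.68), PSMC6 (0.63) and PSMD7 (0.54) were called higher only with it among these 2 fits. With the substituted library, the members called were PSMB6, PSMB8 and PSMB9, all higher, where 75 of 20404 genes were called higher and 148 lower. The part of GC content in the single fold changes was not tested beyond this correction.

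**Figure D4:**
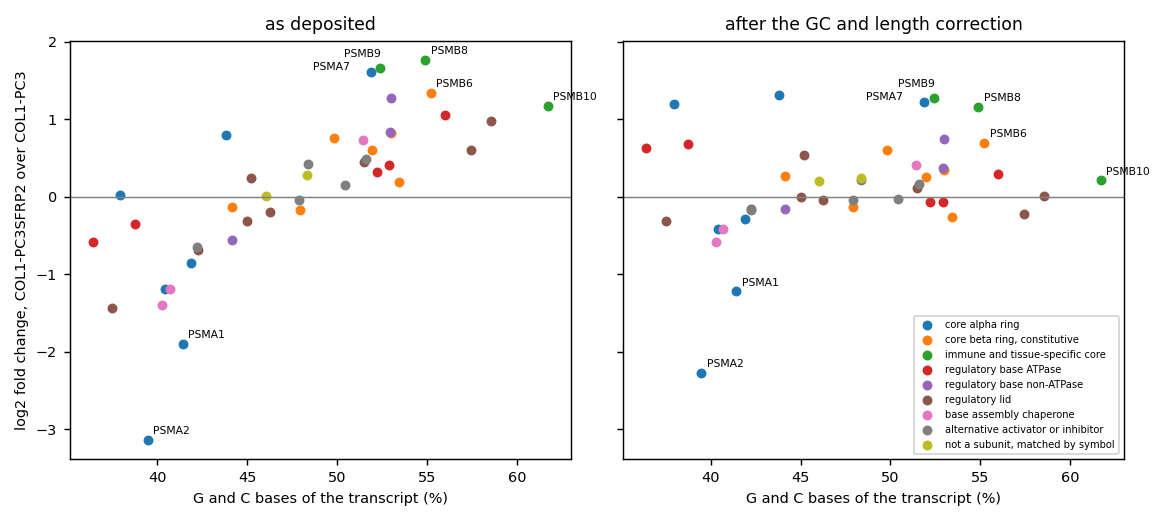
Log2 fold change between COL1-PC3SFRP2 and COL1-PC3 (y axis) against the GC content of the transcript in percent (x axis) for the members tested, from the counts as deposited and after the correction for GC content and length. The points climb with GC content as deposited (Spearman 0.85) and less so after the correction (0.31); PSMC1 is left out for its wide error.

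PSMA2 and PSMA1 were examined in a second alignment of the same reads, deposited for 11 of the 12 libraries without the third of COL1-PC3SFRP2. In it, 38 of the 44 members had 0.9 to 1.1 times the counts of the first table. PSMA2 had 36.4% and PSMA1 59.5% of their counts in the first, and PSMA6, PSMC1, PSMC6 and PSMD4 had 144% to 170%. For PSMA2 this share was 93.5% in COL1-PC3SFRP2 and 35.0% in COL1-PC3, and for PSMA1 179% in COL1-PC3SFRP2 and 52.8% in COL1-PC3. The ratio of the alignments thus differed between the groups. PSMA2 had 2.42 and 4.36 CPM in COL1-PC3SFRP2, against 6.90, 9.62 and 8.73 CPM in COL1-PC3, and stayed lower (log2 fold change -1.31, SE 0.31, edgeR adjusted p = 0.000683). PSMA1 had 29.0 and 51.1 CPM in COL1-PC3SFRP2, against 33.0, 38.5 and 37.2 CPM in COL1-PC3, where the groups overlapped and the sign turned (0.14, edgeR adjusted p = 0.565). From the first table without that same library, PSMA2 was -2.71 and PSMA1 -1.58. A readthrough gene (ENSG00000256646) covers 100% of the transcript of PSMA2, and another (ENSG00000256206) covers 67.0% of that of PSMA1, and both readthrough genes had 0 counts in every library of both tables. How reads shared with them were assigned is not given, and both values are uncertain.

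**Figure D5:**
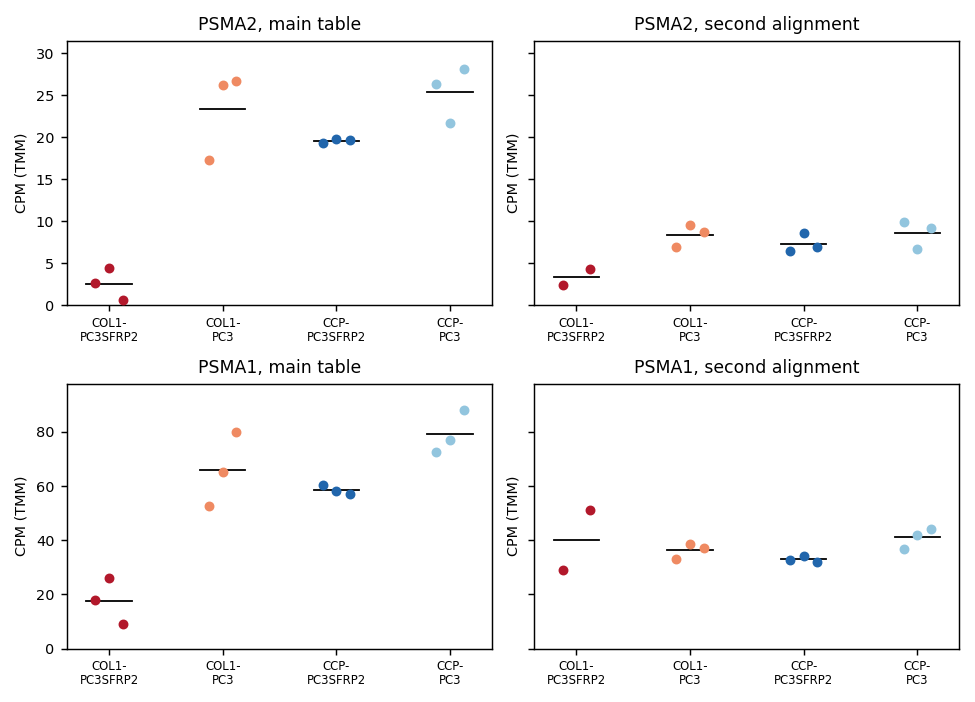
CPM (y axis) of PSMA2 and PSMA1 in each library, in the table used here and in the second alignment, which lacks the third COL1-PC3SFRP2 library. PSMA2 is lower in COL1-PC3SFRP2 than in COL1-PC3 in both, while PSMA1 is lower in the first and overlaps in the second, at 29.0 and 51.1 CPM in COL1-PC3SFRP2 and 33.0 to 38.5 CPM in COL1-PC3.

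On CCP, 0 of the 44 members were called between CCP-PC3SFRP2 and CCP-PC3, where 0.0786% of all genes tested were, 0.0295% higher and 0.0491% lower (16 genes by edgeR, 92 by DESeq2 and 1000 at an unadjusted p under 0.05). At an unadjusted p under 0.05 stood 1 member, PSMB8, and DESeq2 called 0 members. PSMB8 had 19.9, 16.6 and 19.5 CPM in CCP-PC3SFRP2, against 15.4, 11.3 and 10.9 CPM in CCP-PC3. The groups did not overlap, and the log2 fold change was 0.57 (approximate 95% interval 0.13 to 1.02, edgeR adjusted p = 0.923), and it was called in 2 of the 26 alternatives. PSMB9 had 2.93, 4.88 and 2.82 CPM in CCP-PC3SFRP2, against 2.85, 2.55 and 2.33 CPM in CCP-PC3 (0.45, interval -0.18 to 1.07), and PSMB10 differed by 0.61 (interval -0.30 to 1.52). PSMB6 had 92.2, 90.7 and 85.2 CPM in CCP-PC3SFRP2, against 96.4, 93.3 and 78.5 CPM in CCP-PC3, a difference of -0.00 with an interval of -0.37 to 0.36. The other members leaned lower without passing the test. Of the 44, 7 had a positive log2 fold change, the median was -0.14 against -0.04 over all genes. Among them, 18 had all CCP-PC3SFRP2 libraries below those of CCP-PC3, where 12.7% of all genes did, and 1 had all above, where 7.46% did. Here too the log2 fold changes of the members went with GC content (Spearman 0.68, against 0.15 over 12551 genes). After the GC correction the correlation over the members was 0.56, and its cause was not tested. The members with the smallest p by role were PSMA1 (-0.44) and PSMA2 (-0.38), PSMB1 (-0.20) and PSMB3 (-0.16), PSMC4 (-0.18) and PSMC2 (-0.21), PSMD1 (-0.30) and PSMD2 (0.11), PSMD6 (-0.31) and PSMD7 (-0.35), PSMD5 (-0.28) and PSMD10 (-0.32), PSME3 (-0.12) and PSMF1 (-0.09), and the partner genes PSME3IP1 (-0.34) and PSMC3IP (0.10). The immune core summed to 24.3, 23.3 and 24.9 CPM in CCP-PC3SFRP2, against 19.8, 15.4 and 13.8 CPM in CCP-PC3.

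In PC3SFRP2 cells, the comparison of COL1 with CCP gave 20 members higher and 7 lower of 44, where 19.9% of all genes tested were called higher, 17.7% lower and 37.6% either way by edgeR. It shares the COL1-PC3SFRP2 libraries with the comparison above, so similar values in both are not independent. The median log2 fold change was 0.30, against -0.04 over all genes, and 23 members had all COL1-PC3SFRP2 libraries above those of CCP-PC3SFRP2 and 9 all below, where 25.0% and 25.7% of all genes did. The alpha ring had 2 higher and 3 lower, the constitutive beta ring 5 and 0, the immune core 3 and 0, the base ATPases 2 and 0, the further base subunits 2 and 0, the lid 3 and 1, the assembly chaperones 1 and 2 and the activators and inhibitors 2 and 1. With the values of COL1-PC3SFRP2 given above, CCP-PC3SFRP2 had 19.3, 19.8 and 19.7 CPM of PSMA2, a log2 fold change of -2.87 (SE 0.38, edgeR adjusted p = 0.000477). CCP-PC3SFRP2 had 131, 130 and 133 CPM of PSMA7 (1.70, SE 0.25, edgeR adjusted p = 0.000562). PSMB6 changed by 1.34 (SE 0.19, edgeR adjusted p = 0.000519), PSMB5 by 0.95, PSMB8 by 1.23 (edgeR adjusted p = 0.0011), PSMB9 by 1.19 and PSMB10 by 1.24 (edgeR adjusted p = 0.0301). In the regulatory particle, PSMD2 was higher by 0.93, PSMD4 by 1.21, PSMC3 by 1.11, PSMC4 by 0.76, PSMD8 by 1.17 and PSMD3 by 1.20, and the chaperones PSMD5 and PSMD10 fell by 0.92 and 1.04. PSMF1, an inhibitor of the core, was higher by 0.83 (edgeR adjusted p = 0.00436), and PSME1 by 0.61 (edgeR adjusted p = 0.0106). With the substituted library 0 members were called in this comparison, where 4 of 20404 genes were. After the GC correction 12 members were higher and 3 lower, where 1320 and 1451 of 20364 genes were. Of these members, 7 and 3 were called without the correction. The immune subunits lost their calls under it, with PSMB8 at 0.47 (edgeR adjusted p = 0.0937), PSMB9 at 0.69 (0.15) and PSMB10 at 0.03 (0.977), as did PSMB5 at 0.35, PSME1 at 0.16, PSMC3 at 0.20, PSMC4 at 0.17, PSMD8 at 0.17, PSMD3 at 0.10, PSMD5 at -0.09 and PSMD10 at -0.30. PSMA2 (-2.08), PSMA7 (1.19), PSMB6 (0.53), PSMD2 (0.43), PSMD4 (0.57) and PSMF1 (0.79) kept theirs.

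In the control PC3 cells, 0 members were called between COL1-PC3 and CCP-PC3, where 0.00% of all genes were (0 by edgeR, 6 by DESeq2 and 790 at an unadjusted p under 0.05). At an unadjusted p under 0.05 stood 2 members, PSMD8 and PSMB3, both higher, and DESeq2 called 0 members. The median of the members was -0.00, and 2 had all COL1-PC3 libraries above those of CCP-PC3 and 5 all below, where 5.16% and 7.17% of all genes did. Those with the smallest p by role were PSMA1 (-0.26) and PSMA3 (-0.30), PSMB3 (0.55) and PSMB2 (0.19), PSMB10 (0.67) and PSMB8 (0.04), PSMC5 (-0.24) and PSMC4 (0.17), PSMD2 (0.20) and PSMD1 (-0.16), PSMD8 (0.46) and PSMD7 (-0.40), PSMD9 (0.10) and PSMD10 (0.03), and PSMF1 (0.32) and PSME1 (0.18). PSMB8 had 16.5, 9.0 and 13.2 CPM in COL1-PC3, against 15.4, 11.3 and 10.9 CPM in CCP-PC3, and the groups overlapped.

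The difference of the SFRP2 effect between the surfaces was tested by the interaction, in which 6.31% of all genes and 9 of the 44 members passed. Of these members, 7 had a more positive effect on COL1 (3.78% of all genes) and 2 a more negative one (2.53%). PSMB8 was among them (log2 difference 1.20, SE 0.32, edgeR adjusted p = 0.0449), as were PSMB6 (1.34, SE 0.26, edgeR adjusted p = 0.0301) and PSMA2 (-2.75, SE 0.49, edgeR adjusted p = 0.0238). PSMB9, at 1.21, did not pass (edgeR adjusted p = 0.0928). None of the 9 kept its call in all 12 fits without 1 library, and 0 passed with the substituted library. Over all genes, 0 of 20404 passed with the substituted library, and 2 each without COL1-PC3 2 and without COL1-PC3 3. Leaving out a CCP library also lowered this number, to 7 without CCP-PC3SFRP2 1 and 92 without CCP-PC3 3. It was 2 each without CCP-PC3SFRP2 2, CCP-PC3SFRP2 3, CCP-PC3 1 and CCP-PC3 2. With the substituted library the estimates of PSMB8, PSMB6 and PSMA2 were 0.89, 0.89 and -0.81. After the GC correction PSMB6 and PSMA2 passed and PSMB8 did not (0.57, edgeR adjusted p = 0.296).

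Genes that work with the proteasome were read from 2 lists. Of 30 partners (assembly factors, receptors, shuttles, deubiquitinases and ubiquitin genes), 10 were higher and 9 lower in COL1-PC3SFRP2 than in COL1-PC3, where 18.1% and 17.1% of all genes were, and their median log2 fold change was -0.04, against 0.01 over all genes. VCP, the segregase that extracts ubiquitinated proteins, had 281, 252 and 310 CPM in COL1-PC3SFRP2, against 128, 138 and 142 CPM in COL1-PC3 (1.04, edgeR adjusted p = 0.000506), and was called under all 26 alternatives. ADRM1, a ubiquitin receptor of the base, was higher at 1.47 (edgeR adjusted p = 0.00158), and TXNL1, a thioredoxin bound to the regulatory particle, was lower at -1.64 (edgeR adjusted p = 0.000868). ADRM1 lost its call after the GC correction (0.29) and both lost it with the substituted library (0.77 and -0.70). Of 12 companions of the immunoproteasome in MHC class I display, 6 were higher and 1, the aminopeptidase ERAP2, lower, with a median of 0.74. TAP1, a peptide transporter subunit whose gene neighbours PSMB8 and PSMB9, had 26.7, 25.2 and 31.9 CPM in COL1-PC3SFRP2, against 10.2, 8.05 and 7.77 CPM in COL1-PC3 (1.69, edgeR adjusted p = 0.000186), and was called under all 26 alternatives. NLRC5, a transactivator of MHC class I genes, was higher at 2.48 (edgeR adjusted p = 0.00256), and lost its call with the substituted library (2.17) and after the GC correction (1.53).

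On the other contrasts the same lists gave other numbers of calls. On CCP 0 of either list were called, where 0.0786% of all genes were. The companions with the smallest p there were TAP1 (0.54), IRF1 (0.80) and ERAP1 (0.60). TAP1 had 10.4, 10.2 and 11.5 CPM in CCP-PC3SFRP2, against 7.13, 7.25 and 7.63 CPM in CCP-PC3, without overlap. In PC3SFRP2 cells, COL1 against CCP gave 11 higher and 10 lower of the partners, among them ADRM1 (1.78), and 7 higher and 2 lower of the companions, among them TAP1 (1.38) and HLA-B (1.34), where 19.9% and 17.7% of all genes were called. After the GC correction these 3 lost their calls, at 0.36, 0.47 and 0.21, and they lost them with the substituted library, at 1.08, 0.96 and 0.82. In PC3 cells 0 of either list were called between the surfaces, where 0.00% of all genes were.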

How the data were processed

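RNA was sequenced from PC3SFRP2 and PC3 cells on COL1 and CCP (4 groups, 3 libraries each; SENSE mRNA-Seq kit). Reads were aligned by the authors (STAR and GRCh38 are named in the submitters' processing notes), who deposited raw counts per gene; the counting tool's strand setting and the settings of the second alignment are not given in the sources used here. The triplicate table was used. Under other sample names, 8 columns of the further tables were not used, and a pair of further tables that repeat columns of these was left out. From 60676 genes, 60357 matched GENCODE 44. Genes whose sum over the 12 libraries reached 10 counts were scaled by TMM and tested in 1 fit of all groups with edgeR 4.0.16 (quasi-likelihood, robust; R 4.3.3), adjusted by Benjamini-Hochberg over 20364 genes, at 0.05. DESeq2 1.42.0 was an alternative, and limma 3.58.1 was loaded with edgeR. Ratios had 0.5 added to each count. At totals of 5529459 to 9975972 counts, PSMB9, PSMB10 and PSMA2 had few counts in some libraries. For PSMA2 these were the COL1-PC3SFRP2 libraries, with 17, 29 and 3 counts, while COL1-PC3 1 had 93 at a total of 5893267.

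The members, lists, motifs and tests were chosen with earlier results of these data known. Genes named are, per comparison and role, the 2 members with the smallest p, the active and immune core subunits, PSME1, PSME2 and PSMA2, and the 3 genes of each list with the smallest p; some of these are not reported here, and others stand as examples chosen after their values were seen. The scripts were tested on simulated counts. The closing section gives the effect of 26 alternatives. The fit without the robust option, the substituted library with the GC correction and the alternatives for summed levels were added after seeing the data.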

Additional observations from a re-analysis of the deposited data

Results flagged for a closer look

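The effect of SFRP2 differed between COL1 and CCP, by the interaction test, for 9 members. The log2 difference (effect on COL1 minus effect on CCP) was -2.75 for PSMA2 (edgeR adjusted p = 0.0238), -1.46 for PSMA1 (edgeR adjusted p = 0.0447), 1.72 for PSMA7 (edgeR adjusted p = 0.0315) and 1.34 for PSMB6 (edgeR adjusted p = 0.0301). It was 0.82 for PSMB7, 1.20 for PSMB8, 1.09 for PSMC3, 0.73 for PSMD2 and 1.29 for PSMD4, with edgeR adjusted p between 0.0415 and 0.05. Each draws on the libraries of all 4 groups, and none of the 9 was called with the substituted library or with the replicate block. The same settings left 0 and 2 interaction calls over all genes. All 9 kept the call without COL1-PC3SFRP2 2 and without COL1-PC3SFRP2 3. None kept it without COL1-PC3 2 or 3, without any 1 of the CCP-PC3SFRP2 libraries, or without CCP-PC3 1 or 2. In the second alignment PSMA1 turned sign, at 0.46 (edgeR adjusted p = 0.153), and PSMA2 was -1.07 (edgeR adjusted p = 0.0419). After the GC correction PSMA2 was -2.02, PSMA7 1.30, PSMA1 -0.90, PSMB6 0.67 and PSMB7 0.62, all still called. The other 4 lost the call under it, with PSMB8 at 0.57 (edgeR adjusted p = 0.296), PSMC3 at 0.31 (0.363), PSMD2 at 0.27 (0.458) and PSMD4 at 0.73 (0.0588).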

How the results depend on the processing

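Of the members called on COL1, PSMB6, PSMB8 and PSMB9 were called under all 26 alternatives, PSMA7, PSMB7, PSMD2, PSMD4 and PSMD10 under 25, PSMA2 and PSMD5 under 24, and PSMA1 and PSMC3 under 23. Members higher and lower in COL1-PC3SFRP2 than in COL1-PC3 (17 and 7) numbered 3 and 0 with the substituted library, 11 and 2 with it after the GC correction, 8 higher with the 2 groups alone, 11 lower with no filter and 3 lower with the replicate block and the GC correction. COL1 against CCP in PC3SFRP2 (20 and 7) gave 12 and 3 after the GC correction, 13 and 3 with the block too, 4 lower after the GC correction without COL1-PC3SFRP2 3, 0 and 0 with the substituted library and 7 and 0 with it after the GC correction. On CCP, 1 member was higher and 2 lower with the 2 groups alone, and likewise after the GC correction without COL1-PC3SFRP2 3, a setting that gave 1 and 3 for COL1 against CCP in PC3. The interaction (7 and 2) gave 13 and 5 by DESeq2, 15 and 4 in the second alignment, 11 higher after edgeR's own filter, 6 lower with no filter, 9 and 1 with library totals in place of TMM, and 0 and 0 with the substituted library, with or without the GC correction. Calls over all genes moved as well. They numbered 7157 on COL1, with 223 for the substituted library, 1512 for it after the GC correction and 2522 for the 2 groups alone. With no filter 3637 of 33230 genes were lower on COL1, and 1717 of 20364 with the replicate block and the GC correction. For COL1 against CCP in PC3SFRP2 the calls numbered 7665, with 2771 after the GC correction, 4 for the substituted library and 664 for both. The GC correction with the block gave 2509 there, and without COL1-PC3SFRP2 3 it gave 3430, of which 1762 were lower. Calls on CCP were 16, with 891 for the 2 groups alone and 916 after the GC correction without COL1-PC3SFRP2 3. That last setting called 165 genes higher and 184 lower of 20103 for COL1 against CCP in PC3. Over all genes the interaction had 769 higher and 515 lower, against 1152 and 376 with library totals. It called 3837 genes by DESeq2 and 0 for the substituted library, or 20 after the GC correction too. In the second alignment 2025 genes were higher and 1983 lower of 19267 in the interaction. After edgeR's own filter 1135 of 13782 were higher, and with no filter 2060 of 33230 were lower. The cause of these shifts was not tested.

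Signs turned for some values. On COL1 these were PSMA1 in the second alignment (0.14), PSMC4 after the GC correction (-0.070, with the block -0.068, without COL1-PC3SFRP2 3 -0.057, with the substituted library -0.098), PSMD3 (-0.013) and PSME4 (0.019) after it without COL1-PC3SFRP2 3, PSME4 with it and the substituted library (0.0019) and PSME2 with it and the block (-0.056). For COL1 against CCP in PC3SFRP2 they were PSME2 after the GC correction (-0.17, with the block -0.19), PSMB10 with both (-0.038) and the log2 ratio of PSMB10 to PSMB7 with the substituted library (-0.34). In the interaction they were PSMB10 after the GC correction (-0.43, with the block -0.52, without COL1-PC3SFRP2 3 -0.12, with the substituted library -0.44), and PSMD12 (0.058) and PSME1 (-0.012) with the correction and the substituted library. Summed levels moved too. The log2 difference of the regulatory particle on COL1 was 0.29, with 0.12 after the GC correction and 0.20 on substitution of the library, and in PC3SFRP2 0.43, with 0.21 and 0.34. That of the immune core on COL1 was 1.69, with 1.10 after the GC correction, and in PC3SFRP2 1.23, with 0.48 after it, 0.96 with the substituted library, 1.17 with library totals and 1.29 in the second alignment.

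Without 1 library at a time, the members higher on COL1 numbered 11 to 19 and lower 5 to 12, those lower on COL1 against CCP in PC3SFRP2 6 to 11, and those of the interaction 0 to 16 and 0 to 7, while PSMC3IP in the interaction had -0.21 to 0.35. Interaction calls over all genes moved as well, with 2 without COL1-PC3 2 and 5515 without COL1-PC3SFRP2 2.

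Replicate numbers gave no pairing: deviations from the group means correlated at -0.48 to 0.41 over 18 same-numbered pairs, with 2 over 0.1, and at -0.54 to 0.52 over 36 others. With the replicate block, 13 members were higher and 7 lower on COL1, where 3131 and 3038 of 20364 genes were. For COL1 against CCP in PC3SFRP2 the block gave 18 and 7 members, where 3656 and 3256 genes were called. In the interaction it gave 0 and 0 members, and 3 were higher with the block and the GC correction. The block left 2 interaction calls over all genes, and 396 with the GC correction too.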
